A study of Mus musculus with 6 samples.

Results

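The genes described here move calcium out of the endoplasmic reticulum (ER), refill it, and open the plasma membrane when it runs low. They are the ER release channels Itpr1, Itpr2, Itpr3 and Ryr1, the ER calcium sensors Stim1 and Stim2, the plasma membrane channel subunits Orai1 and Orai2, and the ER calcium pumps Atp2a2 and Atp2a3. They were found by gene identifier, with the version number removed, and all 10 were present among the 52550 genes of the gene table, with 66 of the 131146 transcripts of the transcript table. RNA was sequenced from wild type (WT) mouse splenic CD3+ T cells activated with anti-CD3/CD28, 3 biological replicates without further addition (TCR alone) and 3 with DMGV at 100 ng/ml (TCR+DMGV), all taken at 24 h. DMGV, dimethylguanidino valeric acid, is a metabolite of methylated arginines. The study's text describes its RNA sequencing with LNY1, a preparation of methylated arginines, whereas the labels name DMGV. The study's figure legend gives LNY1 at 100 ng/ml for 24 h in 3 biological samples, and the labels give that dose and time for DMGV. The sources used here do not settle which was added, so the name DMGV below follows the label only. The strain and age of the mice that gave these cells are not given in the sample labels, and unstimulated cells were not analysed here.

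When a T cell receptor is engaged, phospholipase C releases IP3, which opens the IP3 receptors in the ER membrane and lets stored calcium into the cytosol. The STIM proteins sense the fall of calcium inside the ER and open the ORAI channels, and this store-operated entry sustains the calcium signal that activates NFAT and cytokine genes. The SERCA pumps, encoded by the Atp2a genes, return calcium to the ER, and loss of STIM1 or ORAI1 causes immunodeficiency in humans.

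The samples held 37758725 to 43718867 counts each, and 14786 genes were tested. These totals exceed the read depth that the labels state, and what 1 count stands for is not given in the sources used here, so counts may not be independent fragments. T cell markers summed to 2517 to 2757 CPM (counts scaled to library size) in TCR alone and 2690 to 2984 CPM in TCR+DMGV, and no listed marker of T, B, myeloid, NK, erythroid or muscle cells passed the test. B cell markers summed to at most 13.5 CPM and myeloid markers to at most 12.0 CPM. NK cell markers summed to 143 to 169 CPM in TCR alone and 158 to 177 CPM in TCR+DMGV, and Nkg7 and Eomes held most of those counts. The libraries TCR alone 3 and TCR+DMGV 1 stood apart from the other 4 on the first principal component, with scores of 42.06 and 42.89 against -34.91 to -10.51. Fold changes of the 10 genes that moved by over 1.5 times without both libraries are therefore also given without them. No transcript fit was run without both, and fold changes of other genes without both are not given. Annotated genes that overlap the 10 had at most 31 counts in any library. The counts are of bulk RNA, in which fewer cells of a type and less RNA per cell cannot be told apart.

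None of the 10 genes passed the adjusted threshold of 0.05 in edgeR's quasi-likelihood test of TCR+DMGV against TCR alone, where 0.0135% of all genes did. None had an unadjusted p under 0.05 (3.19% of all genes did), and none had groups that did not overlap in CPM (8.86% of all genes did not). DESeq2 and limma on FPKM also called none. In the edgeR test 3 of the 10 were higher and 7 lower with DMGV, and their median log2 fold change was -0.08, against 0.00 over all genes tested. The smallest unadjusted p was 0.255, for Orai1, and every adjusted p was 0.999. The 95% intervals bound the change. For Itpr1, Itpr3, Atp2a2 and Atp2a3 both limits lay within 0.27 of 0 on the log2 scale, whereas Stim1 (-0.70 to 0.64) and Ryr1 (-1.11 to 0.65) were bounded far less tightly.

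**Figure D1:**
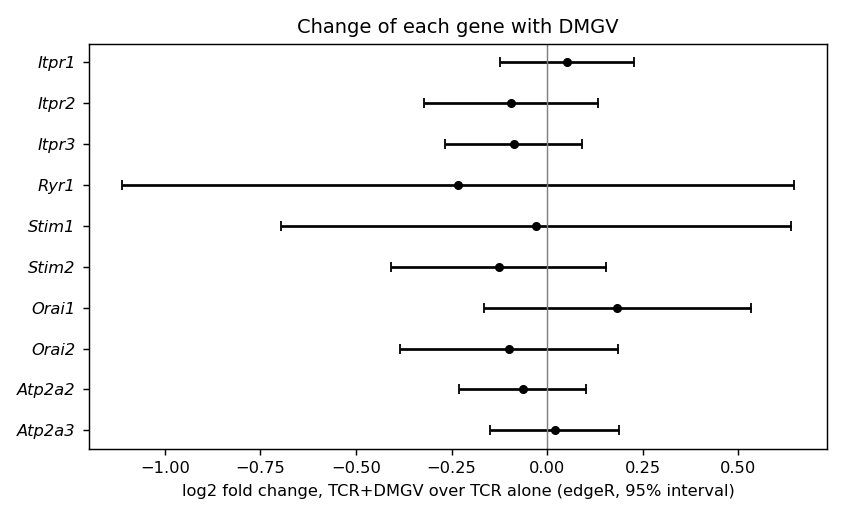
Log2 fold change of each gene in TCR+DMGV over TCR alone from edgeR (horizontal axis) with its 95% interval, 3 libraries a group. Every interval crosses 0, and those of Ryr1 and Stim1 are the widest.

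Levels were compared between genes in the authors' FPKM (fragments per kilobase, scaled to library size), as means over the 6 libraries. The length by which each gene was divided is not given in the sources used here, and ranks and ratios between genes depend on it. In CPM, which is not divided by length, Itpr1 was at 86.0 and Itpr3 at 89.5 in TCR alone, whereas their FPKM were 4.19 and 8.91. Atp2a2, the SERCA pump found in most cells, was highest at 59.2 FPKM, above 94.3% of the genes tested. Orai1, the pore subunit of the store-operated channel, followed at 33.9 FPKM, and Atp2a3, the SERCA pump prominent in blood cells, at 19.0 FPKM. Each of these differed from the next without overlap of the 6 libraries.

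Stim2, the sensor that responds to small falls of ER calcium, and Itpr3 came next, at 8.67 and 8.60 FPKM with overlapping ranges. Stim1 (4.77 FPKM), Itpr1 (4.24), Orai2 (3.92) and Itpr2 (3.54) formed a lower set in which each range overlapped the next. Ryr1, the ryanodine receptor of skeletal muscle, was last at 0.0237 FPKM, and Itpr2 next above it was 149 times as high.

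**Figure D2:**
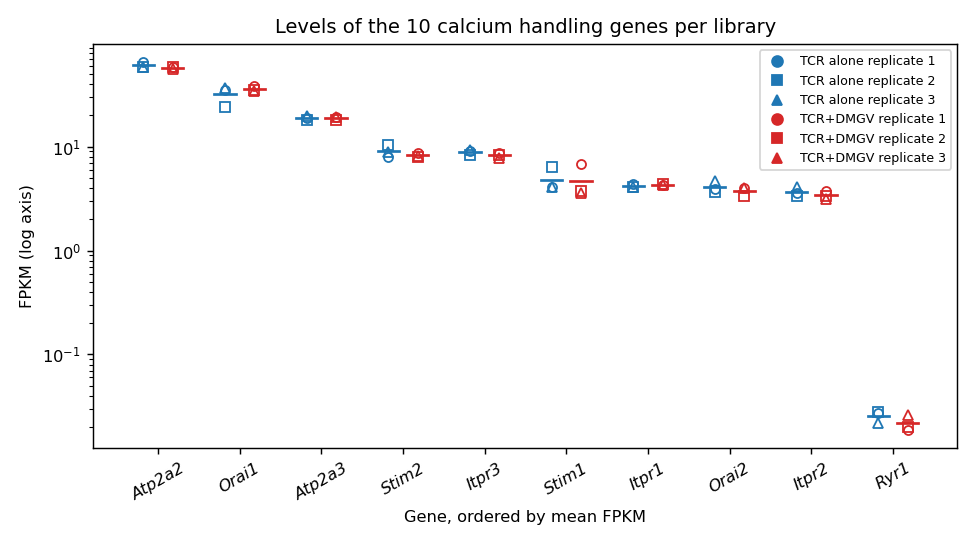
FPKM of each gene (log axis) in each library, with a line at each group's mean, 3 libraries a group. Atp2a2, Orai1 and Atp2a3 lie above the rest, Ryr1 lies far below, and the groups overlap for every gene but Atp2a2.

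Of the IP3 receptors, Itpr1 (ENSMUSG00000030102, GRCm38 chr6:108213096-108551109, plus strand) read 89.3, 85.7 and 83.0 CPM in TCR alone, against 85.5, 91.5 and 90.3 CPM in TCR+DMGV. The groups overlapped, and the log2 fold change was 0.05 (SE 0.07, unadjusted p = 0.512 in edgeR). Itpr3 (chr17:27057304-27122223, plus strand) read 90.6, 85.2 and 92.7 CPM against 86.7, 85.1 and 80.8 CPM. Its lowest library was TCR+DMGV 3, but TCR+DMGV 1 lay above TCR alone 2, and the log2 fold change was -0.09 (SE 0.08). Itpr2 (chr6:146108299-146502223, minus strand) read 59.5, 56.7 and 66.5 CPM against 60.7, 56.5 and 53.8 CPM, overlapping, with a log2 fold change of -0.09 (SE 0.10). The FPKM of Itpr3 was 2.43 ± 0.115 times that of Itpr2 in TCR alone and 2.44 ± 0.0719 times in TCR+DMGV (SD, n = 3 each).

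Ryr1 (chr7:29003344-29125179, minus strand) had 26, 29 and 22 counts in TCR alone, against 21, 22 and 26 in TCR+DMGV. The groups overlapped, and the log2 fold change was -0.23 (SE 0.37), which at counts this low bounded a change only loosely. The exact Poisson 95% interval of a count of 22, 13.8 to 33.3, covers counting error only. All of its counts were on Ryr1-202, 1 of its 8 annotated transcripts. Ryr2, the heart form, had 0 to 4 counts, and Ryr3 had 0 to 5. Of 8 striated muscle markers, Myh1, Myh4 and Myl1 were at 0 in every library, Actn2 had 46 to 77 counts, Cacna1s 8 to 19, and Acta1, Ckm and Tnnt3 0 to at most 14. The summed level of the 8 was 1.59 to 2.15 CPM in TCR alone and 1.78 to 2.70 CPM in TCR+DMGV, and its part in the Ryr1 counts was not tested.

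Stim1 (ENSMUSG00000030987, chr7:102267806-102437319, plus strand), the main ER sensor in T cells, varied most between replicates of the genes well above the detection limit. It read 47.4, 75.2 and 46.2 CPM in TCR alone, against 77.8, 44.5 and 43.2 CPM in TCR+DMGV. One library of each group was high, TCR alone 2 and TCR+DMGV 1, and the other 4 lay close together. The log2 fold change was -0.03 (SE 0.28), and the within-group SD on the log2 scale was 0.44, larger than that of 77% of all genes tested. Among the genes tested with a log2 CPM over 4, it was larger than that of 94.0%. Without TCR alone 2 the log2 fold change was 0.24, without TCR+DMGV 1 it was -0.36, without TCR+DMGV 2 it was 0.10 and without TCR+DMGV 3 it was 0.12. Without both libraries that stood apart on the principal component it was -0.48 (SE 0.21, unadjusted p = 0.0588 and adjusted p = 0.762 in edgeR). The direction of Stim1 therefore rested on which libraries entered the comparison.

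Stim2 (chr5:53998499-54121057, plus strand) read 45.6, 60.8 and 50.5 CPM in TCR alone, against 48.8, 47.0 and 47.8 CPM in TCR+DMGV. TCR alone 2 was the highest, and the log2 fold change was -0.13 (SE 0.12). Without TCR alone 2 it was -0.01. The FPKM of Stim1 was 0.526 ± 0.0803 times that of Stim2 in TCR alone and 0.568 ± 0.191 times in TCR+DMGV (SD, n = 3 each). This ratio depends on the gene lengths used for FPKM. In CPM the mean of Stim1 was 56.3 against 52.3 for Stim2 in TCR alone, and 55.1 against 47.9 in TCR+DMGV.

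Orai1 (ENSMUSG00000049686, chr5:123015074-123030456, plus strand) read 90.2, 62.9 and 92.5 CPM in TCR alone, against 96.5, 91.3 and 91.1 CPM in TCR+DMGV. A single library, TCR alone 2, was low, and the other 5 lay between 90.2 and 96.5 CPM. The log2 fold change was 0.18 (SE 0.15) and was 0.02 without that library, 0.29 without TCR alone 3 and 0.25 without both libraries that stood apart. Orai2 (chr5:136147459-136170713, minus strand), a related subunit, read 26.7, 25.3 and 31.1 CPM against 26.7, 23.0 and 27.8 CPM, overlapping, with a log2 fold change of -0.10 (SE 0.12). This was -0.17 without TCR alone 2, -0.0040 without TCR alone 3, -0.15 without TCR+DMGV 3, -0.02 without TCR+DMGV 2 and -0.03 without both libraries that stood apart. The FPKM of Orai1 was 7.81 ± 1.17 times that of Orai2 in TCR alone and 9.60 ± 0.902 times in TCR+DMGV (SD, n = 3 each).

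TCR alone 2 was thus the library with the highest Stim2, the lowest Orai1 and the second highest Stim1. Its log2 CPM lay 0.48 above the mean of the 6 libraries for Stim1, 0.29 above for Stim2 and, for Orai1, at -0.46 from that mean. It did not stand apart on the first principal component, but on the second it had the lowest score, -40.09, against -15.18 to 34.52 in the other 5 libraries. Why it differed was not tested.

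**Figure D3:**
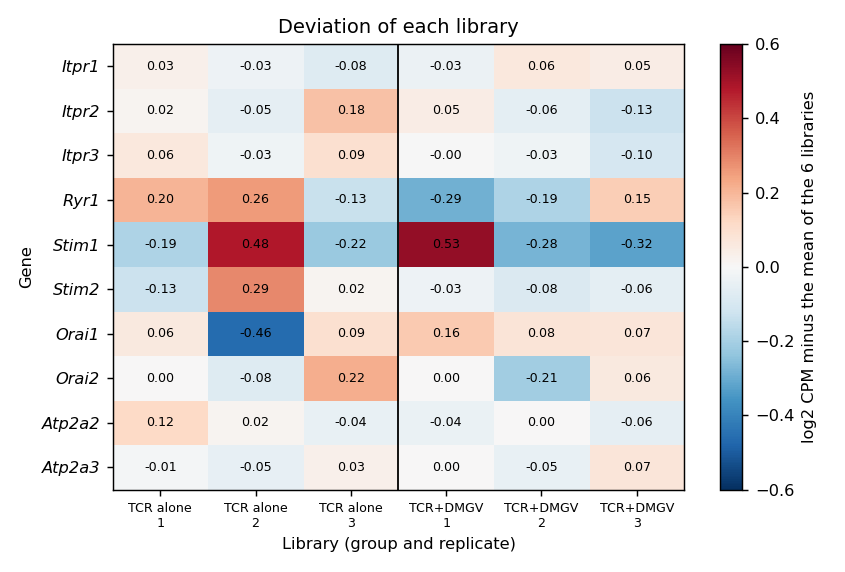
Log2 CPM of each gene (rows) in each library (columns) minus the gene's mean over the 6 libraries. The strongest colours are Stim1 in TCR alone 2 (0.48) and TCR+DMGV 1 (0.53) and Orai1 in TCR alone 2 (-0.46), while no row splits by group.

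The pumps varied little between replicates. Atp2a2 (chr5:122453513-122502225, minus strand) read 439.5, 409.5 and 392.2 CPM in TCR alone, against 393.7, 404.8 and 389.2 CPM in TCR+DMGV. The highest value was TCR alone 1, the groups overlapped in CPM, and the log2 fold change was -0.06 (SE 0.07). In FPKM, Atp2a2 was at 64.869, 58.788 and 58.805 in TCR alone and at 58.744, 58.327 and 55.662 in TCR+DMGV. On that scale the groups did not overlap, by a gap far smaller than the spread within either group, for this 1 of the 10 genes and for 7.85% of all genes tested, and limma on log2(FPKM + 1) gave a log2 difference of -0.08 (SE 0.07, unadjusted p = 0.310). Atp2a3 (chr11:72961169-72993044, plus strand) read 111.8, 109.2 and 115.5 CPM against 113.1, 109.4 and 118.6 CPM, with a log2 fold change of 0.02 (SE 0.07) that turned to -0.020 once the GC trend was removed and was 0.05 without both libraries that stood apart. Its within-group SD on the log2 scale, 0.05, was larger than that of only 2.51% of the genes tested. The FPKM of Atp2a2 was 3.21 ± 0.235 times that of Atp2a3 in TCR alone and 3.03 ± 0.183 times in TCR+DMGV (SD, n = 3 each).

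Some transcripts of these genes encode proteins that differ in stretches of known effect, so the transcript counts were examined next. The read-to-transcript assignment is an estimate where transcripts share exons. Of the 66 transcripts, 53 had a count and 30 could be tested. None passed the adjusted threshold in edgeR, and none of all transcripts did (0%). Of the 30, 1 had an unadjusted p under 0.05 (3.22% of all transcripts did) and 1 had groups that did not overlap (9.25% of all transcripts). Both were Stim1-202, whose mean of 48.5 counts lay under the limit of 50 for naming, so it was chosen after its values were seen. With DMGV 16 were higher and 14 lower. A test of transcript usage, which asks whether the transcripts of a gene changed unequally, could be run on 8 of the 10 genes. None passed, against 1.58% of all genes, and Stim1 alone had an unadjusted p under 0.05 (0.00231, adjusted p = 0.115 in edgeR, with 7.47% of all genes under 0.05). On data simulated without change this usage test made calls, so its p values are too small.

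Stim1-202 carries an extended exon 11 of 12, the stretch that distinguishes the long form STIM1L, which is known from skeletal muscle and binds actin. The extension, GRCm38 chr7:102430952-102431275 on the plus strand, is 324 bases of coding sequence, or 108 codons. Its first 300 bases, chr7:102430952-102431251, are shown because the stretch sets this form apart, all in lower case since no part is singled out, and they are taken from the GENCODE M21 transcript sequences.
Stim1 exon extension, first 300 bases: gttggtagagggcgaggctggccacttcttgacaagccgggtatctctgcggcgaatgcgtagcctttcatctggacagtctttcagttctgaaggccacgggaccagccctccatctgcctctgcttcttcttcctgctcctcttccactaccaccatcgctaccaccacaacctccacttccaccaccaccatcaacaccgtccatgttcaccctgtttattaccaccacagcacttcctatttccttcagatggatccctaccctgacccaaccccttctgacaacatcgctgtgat

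Stim1-202 had 85, 16 and 180 counts in TCR alone, against 8, 0 and 2 counts in TCR+DMGV. Every TCR alone library lay above every TCR+DMGV library, although TCR alone 2 lay far below the other 2 of its group. The fitted log2 fold change was -4.86 (SE 1.46, 95% interval -8.49 to -1.23, unadjusted p = 0.0174, adjusted p = 1.00 in edgeR). As a share of the FPKM of Stim1-201 and Stim1-202 it was 4.75 ± 4.38% in TCR alone and 0.108 ± 0.110% in TCR+DMGV (SD, n = 3 each, two-sided exact permutation p = 0.1, the smallest that 3 against 3 allows). Stim1-201, the usual form, had 1666, 2992 and 1650 counts against 3387, 1829 and 1635. Stim1-204, a retained-intron transcript that overlaps the extension, had 5, 1 and 11 counts against 6, 4 and 10. Leaving out 1 library at a time, the log2 fold change of Stim1-202 ranged from -6.41 to -4.03 with unadjusted p from 0.0139 to 0.0631 in edgeR. The adjusted p of the Stim1 usage test ranged from 0.0260 (without TCR alone 2) to 0.641 over those same fits. Without TCR alone 2, 196 of all 8280 genes tested for usage passed the adjusted threshold.

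**Figure D4:**
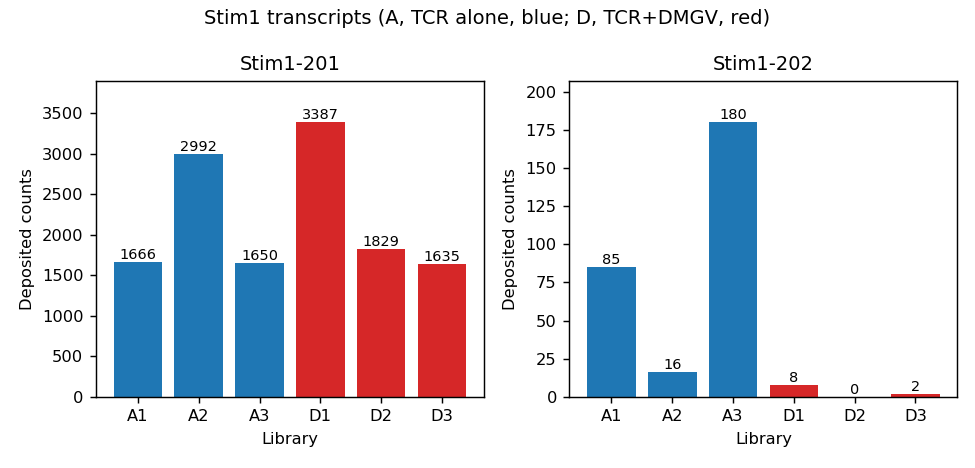
Deposited counts of Stim1-201 and Stim1-202 in each library (A, TCR alone, blue; D, TCR+DMGV, red). Stim1-202 has 16 to 180 counts in TCR alone, against 0 to 8 in TCR+DMGV.

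Stim2-204 differs from Stim2-201 by a short exon of 24 bases, or 8 codons, the insert of the form known as STIM2.1 or STIM2β, which inhibits store-operated entry. It is exon 9 of 13 at GRCm38 chr5:54110116-54110139 on the plus strand. Both forms are shown with 30 bases on each side, and the capitals mark the insert.
Stim2-204: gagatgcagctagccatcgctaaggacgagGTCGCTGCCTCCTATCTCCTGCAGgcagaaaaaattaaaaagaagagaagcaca
Stim2-201: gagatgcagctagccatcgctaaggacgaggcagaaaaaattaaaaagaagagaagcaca

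The form with the insert made up 18.3, 0.0567 and 40.4% of the FPKM of both forms in TCR alone and 38.0, 18.8 and 18.3% in TCR+DMGV. TCR alone 2 held almost none of it, with 2 counts against 304 to 834 in the other 5 libraries, and had the most counts of Stim2-201, 2474. The groups overlapped, and the log2 fold change of Stim2-204 was 0.32 with an SE of 1.51.

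Itpr2-201 differs from Itpr2-202 by exon 6 of 57, which is 99 bases or 33 codons at GRCm38 chr6:146418418-146418516 on the minus strand. The capitals mark this exon between 30 bases of each neighbour.
Itpr2-201: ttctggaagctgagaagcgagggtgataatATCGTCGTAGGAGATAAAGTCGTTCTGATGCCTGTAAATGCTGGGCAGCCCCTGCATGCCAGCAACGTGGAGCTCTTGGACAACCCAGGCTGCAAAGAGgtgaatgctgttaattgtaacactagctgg
Itpr2-202: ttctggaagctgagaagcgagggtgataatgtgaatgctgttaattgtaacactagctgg

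The form with the exon was 26.5, 61.1 and 26.4% of the FPKM of both in TCR alone and 29.6, 67.9 and 32.6% in TCR+DMGV. It was the larger form in the replicate 2 library of both groups and the smaller one in the other 4. In counts, Itpr2-201 read 453, 1210 and 548 against 621, 1462 and 542. The group means of the share, 38.0 ± 19.99% and 43.4 ± 21.3% (SD, n = 3 each), lay well within the spread. A similar split by replicate number was seen for Orai1-201, with 203, 0 and 295 counts against 241, 0 and 291, though it shares its coding sequence with Orai1-202.

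Atp2a2 is spliced at its end into SERCA2b, the form of most cells, and SERCA2a, the form of heart and slow muscle. Atp2a2-201 ends in 149 coding bases at GRCm38 chr5:122457154-122457302 and Atp2a2-202 in 11 bases at chr5:122454294-122454304, both on the minus strand, and these are the ends that set the forms apart.
Atp2a2-201 coding end: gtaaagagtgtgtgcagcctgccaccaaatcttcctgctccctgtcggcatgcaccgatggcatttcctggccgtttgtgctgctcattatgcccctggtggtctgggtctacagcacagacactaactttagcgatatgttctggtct
Atp2a2-202 coding end: caatactggag

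The SERCA2a end made up 13.3, 20.2 and 14.2% of Atp2a2 FPKM in TCR alone and 16.6, 13.8 and 13.1% in TCR+DMGV, so most Atp2a2 RNA carried the SERCA2b end in every library. TCR alone 2 was the highest and the groups overlapped. Atp2a2-203, annotated as subject to nonsense-mediated decay but with the coding sequence of Atp2a2-201, took 20.1 to 44.0% of the gene's FPKM.

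Atp2a3 has an alternative exon, exon 21 of 22 at GRCm38 chr11:72989475-72989560 on the plus strand. Atp2a3-207 uses all 86 bases, and Atp2a3-201 and Atp2a3-204 lack the last 13, which are in capitals, while Atp2a3-202 and Atp2a3-203 skip the exon.
Atp2a3 alternative exon: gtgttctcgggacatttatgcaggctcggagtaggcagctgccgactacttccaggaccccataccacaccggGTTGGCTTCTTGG

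The longer exon made up 52.6 ± 11.6% of the FPKM of these 5 transcripts in TCR alone and 43.8 ± 10.6% in TCR+DMGV. The shorter exon made up 23.1 ± 8.28% and 30.5 ± 0.928%, and the skipped form 24.3 ± 10.6% and 25.7 ± 10.3% (SD, n = 3 each). The groups overlapped for all 3 forms. Atp2a3-204 (1136 counts) and Atp2a3-202 (799 counts) were found in TCR+DMGV 2 alone, whereas the summed forms showed no such step in that library.

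Of the remaining genes, Itpr3 was carried by 1 transcript. Of Itpr1 FPKM, the full-length Itpr1-201 took 31.9 to 40.4% and Itpr1-206 took 40.1 to 47.6%, with overlapping groups, and Itpr1-213, annotated as subject to nonsense-mediated decay, took 5.65 to 13.9%. These shares are per length. In counts, Itpr1-201 held 2890 to 3339 a library and Itpr1-206 only 322 to 378. Orai1-202 took 83.4 to 92.3% of Orai1 FPKM and the noncoding Orai1-203 took 5.98 to 14.05%. Orai2-201 took 35.7 to 80.5% and Orai2-202 took 0 to 41.8% of Orai2 FPKM, the latter with 0 counts in TCR alone 1 and TCR+DMGV 2.

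**Figure D5:**
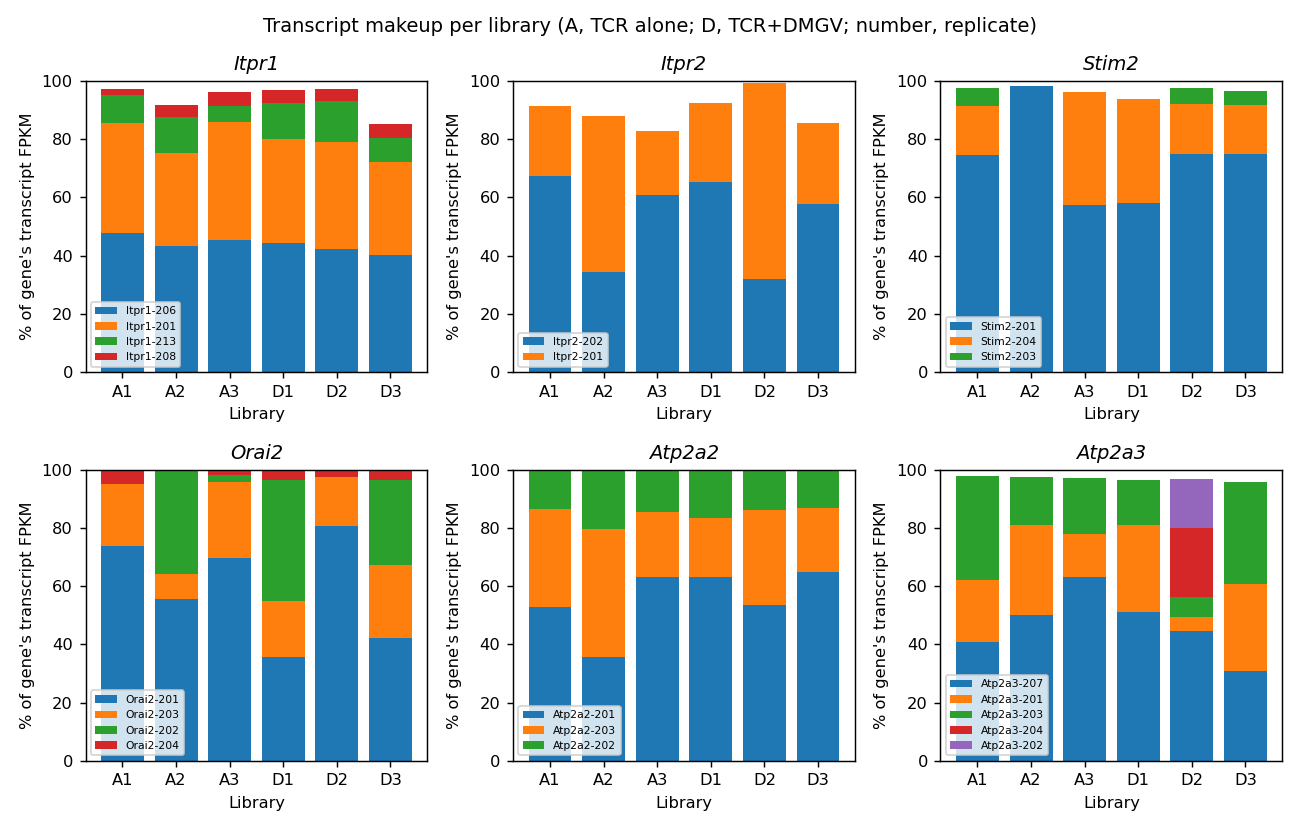
Share of a gene's transcript FPKM taken by its main transcripts in each library (A, TCR alone; D, TCR+DMGV; the number is the replicate; transcripts not drawn make up the rest to 100%). The makeup moves more between single libraries, such as Stim2 in A2 and Itpr2 in A2 and D2, than between the groups.

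Genes that work with these channels and pumps were taken from 6 lists of 82 symbols, of which 61 were tested. None passed the adjusted threshold in edgeR (0.0135% of all genes did) or had an unadjusted p under 0.05 (3.19% of all genes did). Of the 61, 3 had groups that did not overlap, beside the 8.86% of all genes. Of these 3, Saraf and Bcap31 were higher in TCR+DMGV, as were 4.92% of all genes, and Itpkc was lower. In all, 29 were higher and 32 lower with DMGV, and the median log2 fold change was -0.00. The list medians ran from -0.09 (3 calcium pumps, all 3 lower) to 0.02 (9 STIM and ORAI partners, 5 higher and 4 lower).

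Of the enzymes that make or remove IP3, 4 were higher and 8 lower. Plcg1, the phospholipase activated by the T cell receptor, was at 141 ± 2.14 CPM in TCR alone, against 138 ± 12.2 CPM in TCR+DMGV (SD, n = 3 each). Plcb3, another phospholipase C, was at 17.6 ± 1.86 and 15.3 ± 0.953 CPM. Itpkc, an IP3 kinase named after its values were seen because its groups did not overlap, had a log2 fold change of -0.19 (SE 0.12). Of the genes around the release channels, 8 were higher and 8 lower. Calm2, which encodes the calcium sensor calmodulin, was at 249 ± 35.3 and 239 ± 23.7 CPM. Tespa1, an IP3 receptor partner in T cell development, was at 36.0 ± 4.11 and 42.4 ± 4.31 CPM, with a log2 fold change of 0.24 (SE 0.12).

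Saraf, which turns store-operated entry off, came nearest to the unadjusted threshold in its list. It was at 108 to 123 CPM in TCR alone, against 129 to 133 CPM in TCR+DMGV, with no overlap, a log2 fold change of 0.17 (SE 0.08), an unadjusted p of 0.0565 and an adjusted p of 0.999 in edgeR. Bcap31, an ER protein of the contact with mitochondria, was at 123 ± 2.32 and 132 ± 5.93 CPM (SD, n = 3 each), also without overlap, with a log2 fold change of 0.11 (SE 0.07). Calr, encoding the ER calcium store protein calreticulin, was at 1105 ± 63.6 and 1141 ± 52.9 CPM, with a difference below the spread of its replicates. Canx, encoding the ER chaperone calnexin, was at 626 ± 110 and 586 ± 38.6 CPM, and Hspa9, a mitochondrial chaperone, at 1154 ± 72.2 and 1155 ± 32.1 CPM, so that for both the means differed by less than the SD of TCR alone. Surf4, an ER protein that binds STIM1, was at 251 ± 20.6 and 254 ± 3.52 CPM. Atp2c1, the calcium pump of the Golgi, was at 58.2 ± 2.74 and 57.6 ± 1.24 CPM. Atp2b4, a plasma membrane calcium pump, was at 17.3 ± 1.64 and 15.2 ± 0.399 CPM, overlapping. Of the listed genes best known from muscle, Sln, Mrln and Casq2 were at 0 counts in every library, Pln and Hrc had 0 to 4, Casq1 and Jph1 0 to 8 and Atp2a1 0 to 11.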

How the data were processed

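RNA from 6 samples was read as the authors' gene and transcript tables, which hold deposited counts and the authors' FPKM. Per the labels mRNA libraries were used, and the submitters' processing notes name HISAT2 2.0.4 and the mouse build mm9. Identifiers matched GENCODE M21 (GRCm38) for 99.72% of genes without version and 93.31% with it, so names and coordinates come from that annotation; the tables hold no coordinates. The study's methods describe read filtering with SOAPnuke and quantification with StringTie; the options by which reads shared between transcripts, or between strands, were divided are not given in the sources used here. Counts were tested with edgeR 4.0.16 (quasi-likelihood, TMM, filterByExpr, Benjamini-Hochberg) under R 4.3.3, in a model of treatment alone, for genes, transcripts and transcript usage. Exact permutation tests were two-sided. p-values measure the spread between 3 biological replicates a group. DESeq2 1.42.0, limma 3.58.1 on log2(FPKM + 1), other filters and scaling, a GC correction, a replicate block and leaving out libraries were alternatives; robust transcript fits were added after seeing the data. The scripts were tested on simulated data, where the transcript test found only very large changes. The 10 genes and the lists were chosen with earlier results of these data known. Transcripts with a mean of at least 50 counts were named, and in each list the gene of highest FPKM and that of smallest p. Stim1-202, Stim1-204 and Ryr1-202 lay under that limit and were named after their values were seen.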

Additional observations from a re-analysis of the deposited data

How the results depend on the processing

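None of the 10 genes and none of their transcripts passed the adjusted threshold in the gene test or the transcript test under any alternative, and the smallest adjusted p of the 10 over all gene tests was 0.664. The transcript usage test, whose p values are too small, could be run on 8 of the 10 genes. It called 0 of the 8 except without TCR alone 2, where it called 1, Stim1, so its range over left-out libraries was 0 to 1. In that same fit it called 196 of all 8280 genes tested for usage. Over all genes the count past the threshold was 2. It was 14 with DESeq2, 1 with no filter but 1 count, 0 with limma on log2(FPKM + 1) (517 at an unadjusted p under 0.05), 12 without both libraries that stood apart, and 0 to 5 leaving out 1 library at a time, the highest without TCR+DMGV 1. Of 140 fold changes of the 10 genes under alternatives, 134 kept their direction and 6 reversed. Stim1 ranged from -0.36 to 0.24 and Atp2a3 from -0.011 to 0.047 over left-out libraries, and Atp2a3 was -0.020 with the GC trend removed. Orai1 ranged from 0.02 to 0.29, Orai2 from -0.17 to -0.0040, Stim2 from -0.23 to -0.01, Itpr2 from -0.15 to -0.02 (without TCR alone 3), Itpr3 from -0.13 to -0.06, Itpr1 from 0.03 to 0.08, Ryr1 from -0.38 to -0.14 and Atp2a2 from -0.10 to -0.03. The cause was not tested.

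With the replicate number as a block, 0 genes passed (340 at an unadjusted p under 0.05) and 0 of the 10. Same-numbered samples deviated with r = -0.154, 0.121 and -0.148 over genes, so the numbers were not taken as pairs.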
